A study of Mus musculus with 10 samples.

Results

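Flavin-containing monooxygenases (FMOs) were followed in the posterior wall of the mouse eye through the rows of Fmo1, Fmo2, Fmo4 and Fmo5, 4 of the 26360 genes listed, taken by gene name. The family was chosen by values of these same libraries, namely how alike its levels were in the 2 eyes of an animal and how far animals differed. That comparison is therefore given as a description with no test. Total RNA had been sequenced from tissue labelled retinal pigment epithelium, choroid and sclera of wild type C57BL/6J mice at postnatal day 34, in 10 libraries from 5 animals, 1 from the left and 1 from the right eye of each. In every animal a -20 D lens, which shifts the focal plane behind the retina, had covered one eye for 10 days from postnatal day 24, and the fellow eye was the untreated control. The labels give the side of each eye but not the side of the lens, so left (n = 5) and right (n = 5) eyes were compared and a sign carries no treatment meaning. Animals are named by the numbers in the library titles, 61, 64, 65, 66 and 68.

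FMOs are membrane proteins of the endoplasmic reticulum that hold FAD, take electrons from NADPH and use molecular oxygen to add an oxygen atom to nitrogen or sulfur in drugs, food constituents and some metabolites. FMO1 can also turn hypotaurine into taurine, FMO2 is best known as a lung enzyme, and FMO5 carries out Baeyer-Villiger oxidations of ketones. FMO4 is the least understood of these.

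Fmo1, Fmo2 and Fmo4 lie side by side on the minus strand of chromosome 1 together with Fmo6, and Fmo5 lies alone on chromosome 3 (build GRCm38, coordinates 1-based). Fmo4 (ENSMUSG00000026692.12) spans chr1:162793188-162813972. Fmo1 (ENSMUSG00000040181.14) spans chr1:162829561-162866610 and Fmo2 (ENSMUSG00000040170.13) chr1:162874317-162898726. Fmo5 (ENSMUSG00000028088.14) spans chr3:97628804-97655282 on the plus strand. None of the 4 overlapped another listed gene (0 overlaps each).

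The starts of the 4 coding sequences are shown because they carry the glycine codons of the fold that binds FAD, the feature for which the family is named, and because they show how far the paralogs have diverged at a conserved site. Each run is the first 60 coding bases of the longest principal transcript in GENCODE M21, read 5′ to 3′ from exon 2 (exon 3 in Fmo4), and the capitals mark 3 in-frame glycine codons with 1 codon between the first and the next and 2 codons before the last.
Fmo1: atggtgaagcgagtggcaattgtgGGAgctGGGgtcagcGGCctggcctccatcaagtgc
Fmo2: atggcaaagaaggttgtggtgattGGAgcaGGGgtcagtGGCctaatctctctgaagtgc
Fmo4: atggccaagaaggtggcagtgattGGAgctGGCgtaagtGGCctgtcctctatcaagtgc
Fmo5: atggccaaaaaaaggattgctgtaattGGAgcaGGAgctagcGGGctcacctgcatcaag
These runs lie at chr1:162859497-162859556 (Fmo1, minus strand), chr1:162898246-162898305 (Fmo2, minus), chr1:162809862-162809921 (Fmo4, minus) and chr3:97629061-97629120 (Fmo5, plus). The first of the 3 glycine codons is codon 9 in Fmo1, Fmo2 and Fmo4 and codon 10 in Fmo5. The coding sequences hold 532 (Fmo1), 535 (Fmo2), 560 (Fmo4) and 533 (Fmo5) codons without the stop.

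Over whole coding sequences the members were 60.5% (Fmo1 with Fmo5) to 64.3% (Fmo2 with Fmo4) identical in aligned bases. The longest identical run between principal transcripts of 2 members was 24 bases, between Fmo1 and Fmo5, and no 50-base window was shared (0 for each pair). Reads of Fmo6 could be shared with other genes of the family in counting, so its values are uncertain.

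Fmo1 was the most abundant member per length of transcript, followed by Fmo2, Fmo5 and Fmo4. The mean over the 10 libraries was 18.03 CPM (reads scaled to a fixed library total, 1e+06) per kb of annotated exon for Fmo1 (12.6 to 29.2), 9.10 for Fmo2 (6.11 to 17.2), 1.15 for Fmo5 (0.935 to 1.56) and 0.149 for Fmo4 (0.104 to 0.212). The ranges of neighbours in this order, taken across libraries, overlapped for Fmo1 and Fmo2 and not for the others. Within single libraries the CPM of Fmo1 was 1.72 to 2.96 times that of Fmo2, before division by length (6304 and 5609 bases of annotated exon). Fmo6, outside the set, had 0.20 CPM per kb. Fmo9 was not analysed here. Because this is bulk tissue, more cells of a type and more RNA per cell cannot be told apart.

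The spacing of low values implied 66.9 to 94.2 M reads per library (M stands for 1e+06), of which the listed genes held 30.6 to 43.6 M, so 3 reads corresponded to 0.0318 to 0.0449 CPM. Fmo1 rested on 5615 to 13844 implied reads per library, Fmo2 on 2521 to 7235, Fmo5 on 385 to 665 and Fmo4 on 28.0 to 74.0. Markers of pigment epithelium (summed level 5790 to 7830 CPM), fibroblasts (6147 to 9017 CPM) and endothelium (380 to 548 CPM) were present in all 10 libraries, and so were skeletal muscle (1765 to 8339 CPM), surface epithelium (114 to 863 CPM) and rods (119 to 1732 CPM), cells that lie outside the labelled layers. Animals 61 and 65 had Xist, the RNA of the inactive X chromosome, at 729 to 868 CPM, and the other 3 had summed Y-linked genes at 129 to 143 CPM, so the animals were of both sexes.

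Fmo2 separated the animals most clearly. In left and right eye it stood at 89.5 and 96.3 CPM in animal 61, 52.6 and 47.2 CPM in animal 64, 34.3 and 37.4 CPM in animal 65, 37.7 and 39.2 CPM in animal 66, and 39.6 and 36.8 CPM in animal 68. Both eyes of animal 61 were highest, both eyes of animal 64 came next, and of the other 3 animals the range of 68 overlapped those of 65 and 66, while 65 lay below 66. The lower of the 2 libraries of animal 61 was 1.70 times the highest library of any other animal. On the scale of log2(CPM + 0.230), fellow eyes differed by 0.11 ± 0.04 on average (absolute difference, SD, 5 pairs), and eyes of different animals by 0.63 ± 0.51 (SD, 40 pairs that reuse the same 10 libraries), a ratio of 5.72. For 4 of the 10 libraries the fellow eye was the closest of the other 9, against 2 of 8 without animal 61 or 64 and 6 of 8 without animal 68. Counting error alone would give fellow eyes a mean difference of about 0.03, so at this depth it is a small part of the difference seen.

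Fmo1 had the same highest animal with wider gaps between fellow eyes. It stood at 154 and 184 CPM in the left and right eye of animal 61, 111 and 97.0 CPM in animal 64, 79.2 and 90.3 CPM in animal 65, 83.9 and 111 CPM in animal 66, and 117 and 108 CPM in animal 68. The 2 eyes of animal 61 were again the highest, the lower of them 1.32 times the highest other library, and each neighbouring pair among the other 4 animals overlapped. Fellow eyes of Fmo1 differed by 0.23 ± 0.11 (log2, SD, 5 pairs) and eyes of different animals by 0.46 ± 0.32 (log2, SD, 40 pairs), a ratio of 1.99. The fellow eye was the closest library for 2 of 10, a count that was 5 of 10 with quantile normalization and 0 of 8 without animal 61.

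Fmo5 was nearly level across animals apart from animal 61. It stood at 7.10 and 8.85 CPM in the left and right eye of animal 61, 6.60 and 5.31 CPM in animal 64, 6.28 and 6.74 CPM in animal 65, 5.75 and 6.62 CPM in animal 66, and 6.01 and 6.20 CPM in animal 68. Animal 61 held the 2 highest libraries, but its lower one was only 1.05 times the next library. Fellow eyes of Fmo5 differed by 0.19 ± 0.12 and eyes of different animals by 0.22 ± 0.18 (log2, SD, 5 and 40 pairs), a ratio of 1.14.

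Fmo4 showed no order of animals beyond the difference between fellow eyes. It stood at 0.406 and 0.572 CPM in the left and right eye of animal 61, 0.498 and 0.386 CPM in animal 64, 0.645 and 0.419 CPM in animal 65, 0.598 and 0.605 CPM in animal 66, and 0.605 and 0.785 CPM in animal 68. Neighbouring animals overlapped throughout, and the fellow eye was the closest library for 0 of 10. Fellow eyes of Fmo4 differed by 0.26 ± 0.16 and eyes of different animals by 0.27 ± 0.19 (log2, SD, 5 and 40 pairs), a ratio of 1.04. Counting error alone would give a fellow-eye difference of about 0.25, computed without the pseudocount, which shrinks the differences above. With a smaller pseudocount of 0.05 CPM the fellow-eye and different-animal differences were 0.34 and 0.36 (ratio 1.04). Counting error is thus a large part of the fellow-eye difference, and a small difference between animals could be missed at this depth.

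**Figure D1:**
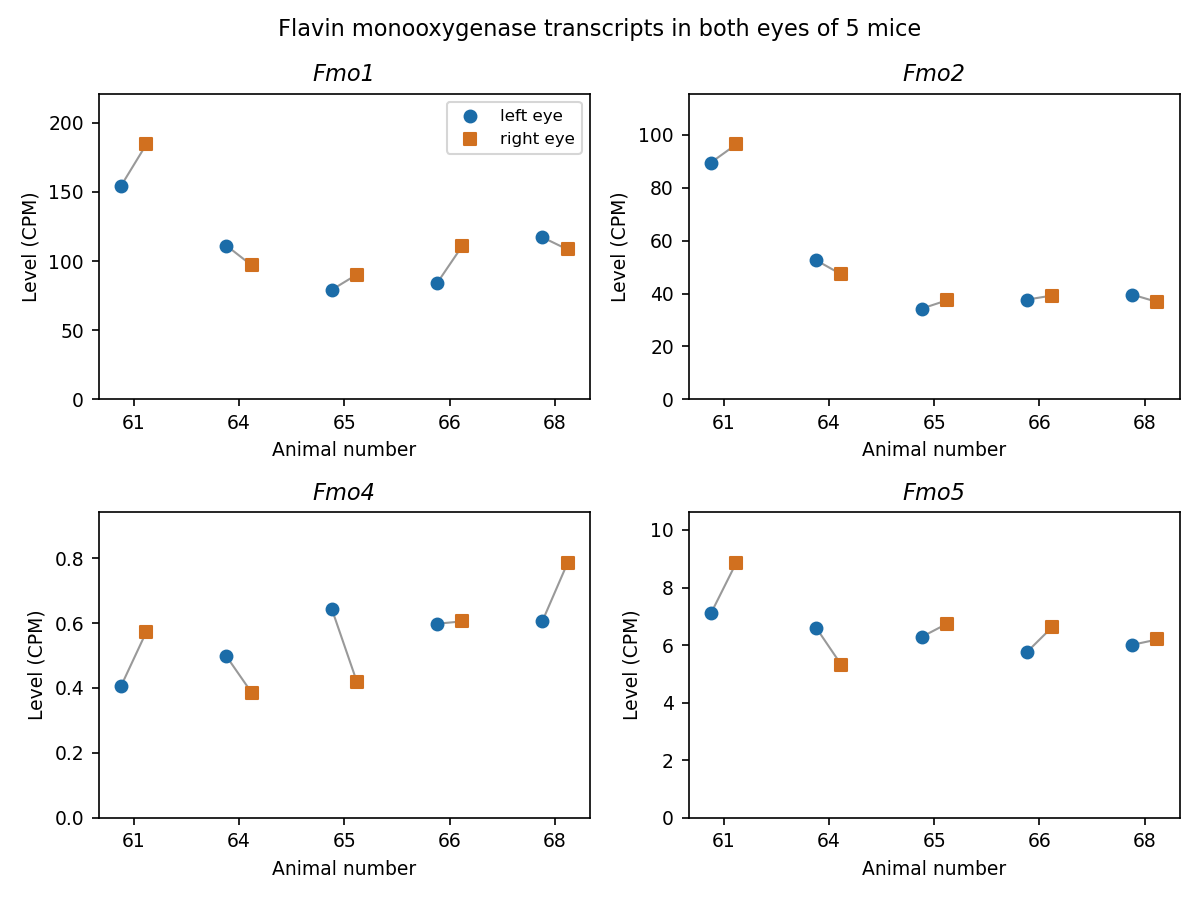
Level of each flavin monooxygenase transcript (CPM, linear axes from 0) in the left eye (circles) and right eye (squares) of the 5 animals, with fellow eyes joined by a line. Animal 61 holds the 2 highest libraries for Fmo1 (154 and 184 CPM), Fmo2 (89.5 and 96.3 CPM) and Fmo5 (7.10 and 8.85 CPM), and not for Fmo4.

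Across the 15414 genes whose mean reached 1 CPM, the median ratio of the different-animal to the fellow-eye difference was 1.04. A ratio at least as high as that of Fmo2 was seen in 0.143% of them, as that of Fmo1 in 5.79%, as that of Fmo5 in 39.1% and as that of Fmo4 in 49.9%. Fmo4 itself, at a mean of 0.552 CPM, was below the level at which genes entered. Both eyes of animal 61 were the 2 highest of the 10 libraries for Fmo1, Fmo2 and Fmo5, and for 6.64% of all genes tested, against 1.47% to 2.67% for each of the other 4 animals. Since the members were chosen with this readout known, these shares are given for scale only.

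**Figure D2:**
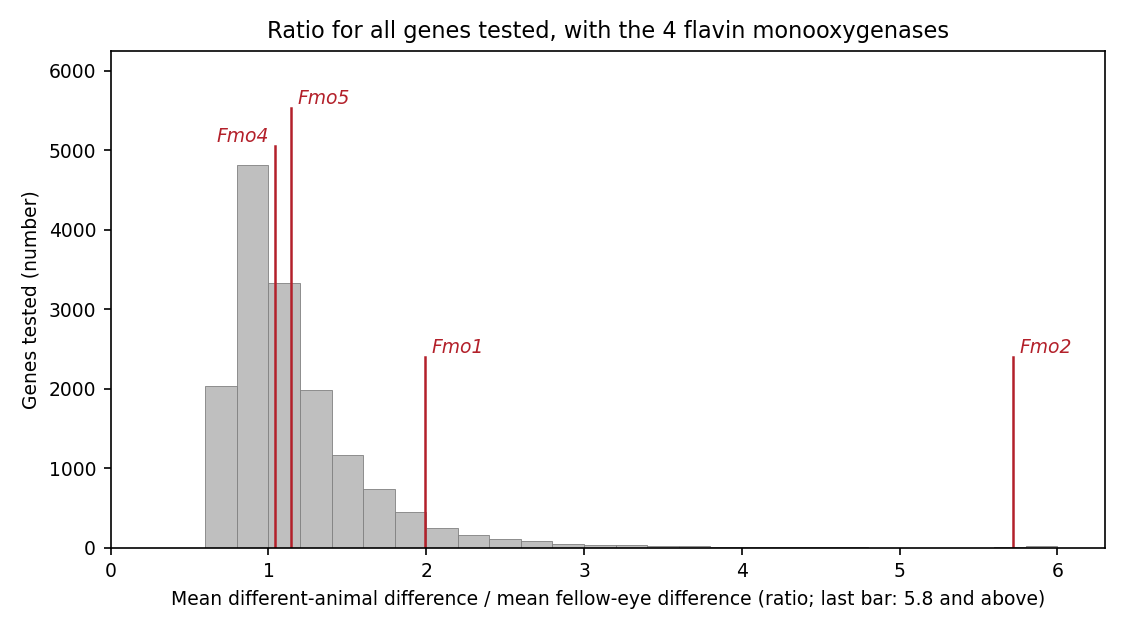
Number of genes tested (vertical axis) by the mean log2 difference of eyes of different animals divided by that of fellow eyes (horizontal axis, bars of 0.2, the last bar collecting all higher ratios), with a red line for each member. Fmo4 and Fmo5 stand at 1.04 and 1.14 near the median gene (1.04), Fmo1 at 1.99 and Fmo2 at 5.72.

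The separation of animals rested largely on animal 61. Without its 2 libraries the different-animal difference of Fmo2 was 0.25 and the ratio 2.23, with animal 64 then the highest, and the different-animal difference of Fmo1 was 0.26 and the ratio 1.14. For Fmo5 the difference was 0.13 and the ratio 0.801. Leaving out any other animal kept the ratio of Fmo2 between 6.09 and 7.03 and that of Fmo1 between 1.84 and 2.75.

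**Figure D3:**
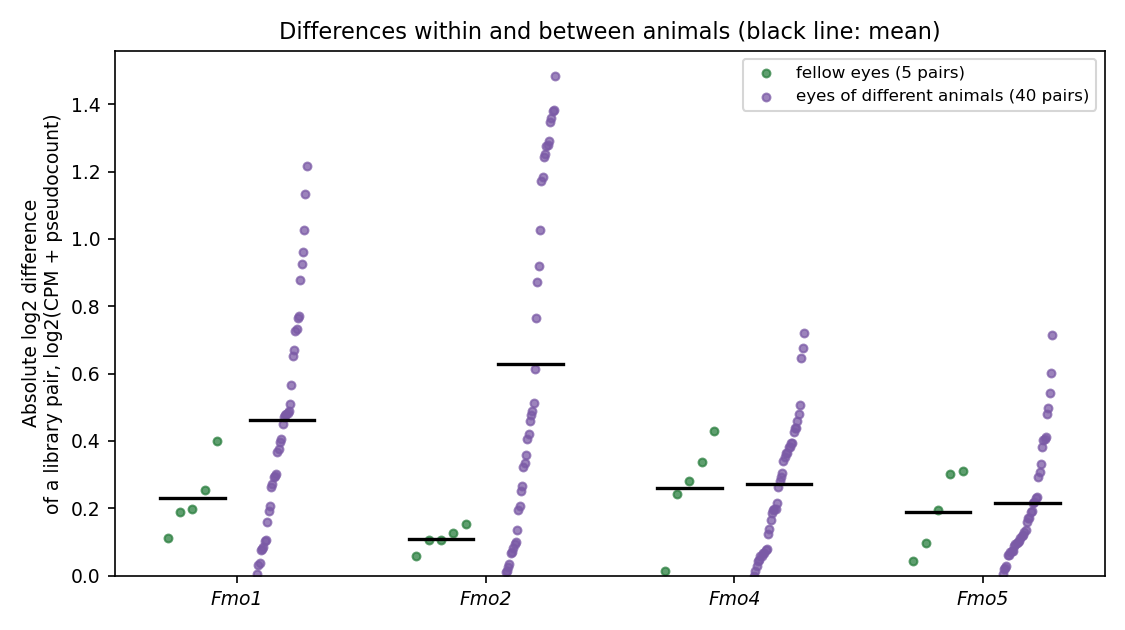
Absolute difference in log2(CPM + 0.230) for each pair of libraries, for fellow eyes (5 green points per gene) and for eyes of different animals (40 purple points, which reuse the same libraries), with black lines at the means. For Fmo2 the fellow-eye points end at 0.15 while those of different animals reach 1.48, and for Fmo4 the 2 means are 0.26 and 0.27.

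Fmo1 and Fmo2 moved alike between libraries, while their ratio was not constant. The CPM of Fmo1 divided by that of Fmo2 was 1.72 and 1.91 in the left and right eye of animal 61, 2.12 and 2.05 in animal 64, 2.31 and 2.41 in animal 65, 2.23 and 2.83 in animal 66, and 2.96 and 2.95 in animal 68. Animal 61, with the highest level of both genes, thus had the lowest share of Fmo1, and animal 68 the highest. As a description over 10 libraries that share animals and scaling, Pearson's r of the log2 levels was 0.89 for Fmo1 with Fmo2, 0.76 for Fmo1 with Fmo5 and 0.71 for Fmo2 with Fmo5. Without animal 61 these values were 0.46, 0.17 and -0.15 over 8 libraries. Fmo4 had r of -0.11, -0.40 and 0.01 with Fmo1, Fmo2 and Fmo5.

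The next comparison asked whether the members differed between right and left eyes. Because the lens side is not given, an effect of the lens could cancel in it, so it does not measure the treatment. None of the members was called. limma, with animal as a model term, called 0% of 15414 genes at an adjusted p of 0.05, and 430 had an unadjusted p under 0.05. Right eyes held Fmo1 at 118 ± 37.9 CPM and left eyes at 109 ± 30.2 CPM (SD, n = 5 for each side), so right minus left was 0.11 ± 0.09 on the log2 scale (SE, limma adjusted p = 0.9998) and positive in 3 of 5 animals. For Fmo2 the right eyes averaged 51.4 ± 25.5 CPM and the left 50.7 ± 22.8 CPM, with right minus left at 0.01 ± 0.06 (log2, SE, limma adjusted p = 0.9998), again positive in 3 of 5. The 95% interval of the right to left ratio was 0.914 to 1.10 for Fmo2 and 0.927 to 1.25 for Fmo1, so for both it left out a 1.5-fold difference between the sides in either direction.

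For the 2 lower genes the side comparison was less precise, slightly so for Fmo5 and more so for Fmo4. Right eyes held Fmo5 at 6.74 ± 1.31 CPM against 6.35 ± 0.524 CPM on the left. Its right minus left was 0.07 ± 0.10 (log2, SE, limma adjusted p = 0.9998), positive in 4 of 5 animals. The 95% interval of its ratio, 0.892 to 1.23, also left out a 1.5-fold difference in either direction. Fmo4 entered only a fit with no filter on low values, where right eyes averaged 0.554 ± 0.160 CPM and left eyes 0.55 ± 0.0973 CPM. Right minus left was then -0.01 ± 0.18 (log2, SE, limma adjusted p = 0.9999). The interval of the ratio, with the pseudocount added to each level, ran from 0.75 to 1.32. For so low a gene the pseudocount narrows it, so it is not an interval of the CPM ratio itself. On the log2 scale it ran from -0.42 to 0.40, and from -0.58 to 0.55 with the smaller pseudocount of 0.05 CPM. In single animals the right minus left difference of Fmo2 was 0.11, -0.15, 0.13, 0.06 and -0.11 (log2, animals 61 to 68 in order) and that of Fmo1 0.26, -0.20, 0.19, 0.40 and -0.11. The 2 genes thus went in the same direction in 5 of 5 animals, higher on the right in animals 61, 65 and 66 and lower in 64 and 68. Each other pair of members did so in 3 or 4 of 5 animals. All share each library's composition, and no test was made of this agreement.

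**Figure D4:**
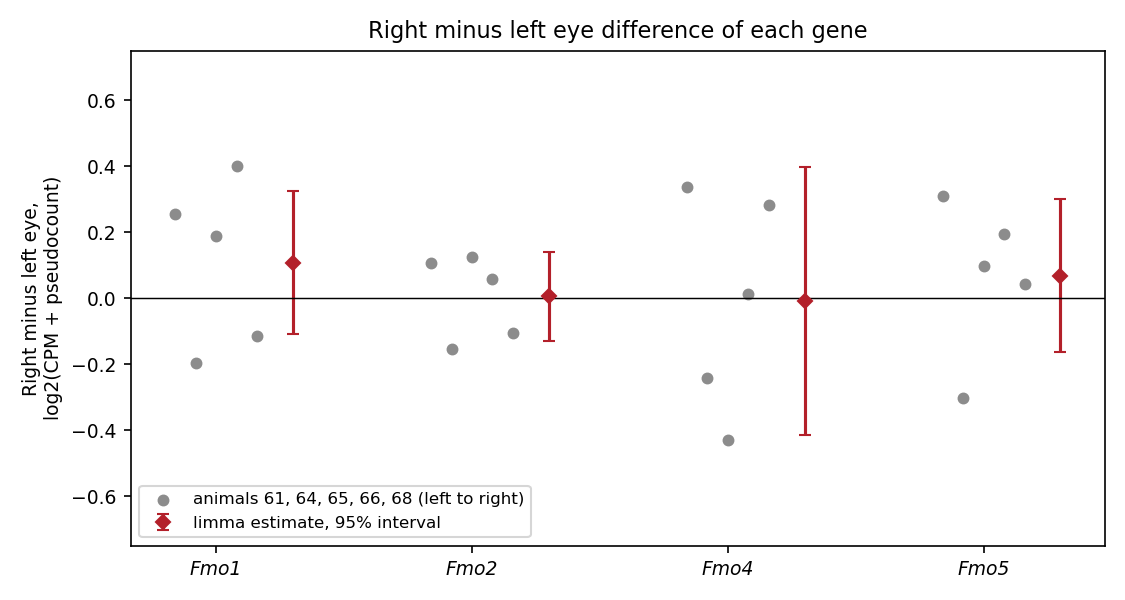
Right minus left eye difference in log2(CPM + 0.230) for each animal (grey points, animals 61, 64, 65, 66 and 68 from left to right) and the limma estimate with its 95% interval (red diamonds). All 4 intervals include 0, with estimates of 0.11 (Fmo1), 0.01 (Fmo2), -0.01 (Fmo4) and 0.07 (Fmo5).

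Around the members, Fmo6 shared the highest animal by mean level, and of the 4 other neighbours described only Prkab2 did. Fmo6, next to Fmo2 at chr1:162916551-162937515, stood at 0.227 to 0.581 CPM, with animal 61 at ranks 1 and 3 of the 10 libraries. On the other side of the cluster Prrc2c, which encodes a protein of RNA granules, stood at 146 to 165 CPM, with animal 66 highest in mean level, then 65 and 61. Myoc, which encodes the secreted glycoprotein myocilin, stood at 179 to 292 CPM, with animal 64 highest and animal 61 second. Beside Fmo5, Chd1l (a chromatin remodeller, 6.93 to 9.48 CPM) had its lowest mean in animal 61, and Prkab2 (a subunit of AMP-activated kinase, 20.5 to 29.3 CPM) its highest.

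The sequence before the start of Fmo2 is shown because this gene separated the animals most. It holds the 250 bases upstream of the RefSeq start that lies farther out, chr1:162898759-162899008, minus strand, build GRCm38.p6, written 5′ to 3′ in lower case. The window lies beyond the span of Fmo2 given above, so no annotated exon of Fmo2 is in it. No GENCODE M21 transcript of Fmo2 held the bases right after this start.
Fmo2 upstream: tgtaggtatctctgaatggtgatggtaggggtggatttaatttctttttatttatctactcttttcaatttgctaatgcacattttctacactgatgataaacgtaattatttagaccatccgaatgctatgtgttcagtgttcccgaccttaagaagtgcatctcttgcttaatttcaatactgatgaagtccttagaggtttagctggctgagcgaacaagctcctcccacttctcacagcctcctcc
It was searched on both strands for the palindromic glucocorticoid response element and the AGAACA within it, GCGTG (aryl hydrocarbon receptor), TGACNNNGC (antioxidant response), CACGTG (E-box), TTATGTAA (D-box), TGTTTAC (FoxO), the interferon-stimulated response element, TATAAA and CCAAT, and held 0 matches. Upstream of the second RefSeq start of Fmo2, AGAACA was found at position -125 and the reverse of TGTTTAC at position -28, letters held by 16.1% and 3.17% of the 32851 promoter windows in the table. Of that window's 250 bases, 227 lie in annotated exons of Fmo2, so most of it is transcribed sequence. The windows of Fmo4 and Fmo5 also lie partly in their annotated exons (104 and 215 bases), and their matches are not described. Positions count back from the start, and a match is only a match of letters.

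By the fixed rule, the 5 protein-coding genes whose log2 pattern over the 10 libraries was most like each member were named, as a description with no p. For Fmo2 these were Rbl2 (a pocket protein of the cell cycle, r = 0.97), Ifit2 (an interferon-induced RNA-binding protein, r = 0.97), Serinc3 (r = 0.95), Tent5a (a poly(A) polymerase, r = 0.95) and Fst (the activin antagonist follistatin, r = 0.95). In each of the 5 both eyes of animal 61 were the highest, as for Tent5a at 80.8 and 87.2 CPM against 52.9 CPM in the lowest library. For Fmo1 they were Prr16, Slc43a3 (a nucleobase transporter), Foxl1 (a forkhead factor), Sult5a1 and Prkaa1 (the alpha 1 catalytic subunit of AMP-activated kinase), with r of 0.94 to 0.96 and again both eyes of animal 61 highest in 5 of 5. Without animal 61 the r of the Fmo2 group ran from 0.65 (Tent5a) to 0.92 (Fst) and that of the Fmo1 group from 0.85 to 0.90. For Fmo5 they were Pstpip1, Il1rap (the co-receptor of interleukin 1), Cd300a, Igf2bp2 and Odf2 (r of 0.88 to 0.93), and for Fmo4 Fam228b, Dnm1, Nubp1, Klhdc3 and Zfp821 (r of 0.86 to 0.91). The highest of so many coefficients over 5 animals are large in any data, and 3 of the 20 genes stayed among the closest 5 without animal 61.

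Genes around FMO chemistry were described by lists. None of the 98 genes of 8 pathway lists that entered passed the right against left test (limma, adjusted p of 0.05), nor did any of 73 marker genes of 10 cell type lists (0 in each direction). Of 22 genes of other phase I oxidation, the first step of xenobiotic metabolism, 9 were higher and 13 lower on the right with a median log2 difference of -0.05, and the median over all genes was -0.01. Their 2 most abundant were Ephx1 (microsomal epoxide hydrolase, 55.6 to 72.7 CPM) and Cyb5a (cytochrome b5, 48.6 to 61.04 CPM). Of 18 genes of phase II conjugation 8 were higher and 10 lower (median -0.01), led by the glutathione transferases Gsta4 (75.5 to 126 CPM) and Gstp1 (50.1 to 79.8 CPM). Of 9 genes of NADPH supply, the electron source of FMOs, 2 were higher and 7 lower (median -0.02), led by Tkt (68.3 to 191 CPM) and Taldo1 (53.8 to 74.0 CPM). Of 5 genes of riboflavin and FAD supply 4 were higher and 1 lower (median 0.02), and of 4 in taurine synthesis and transport, where the product of FMO1 belongs, 2 were higher and 2 lower (median -0.06), with the taurine transporter Slc6a6 at 380 to 757 CPM. Of 12 regulators linked to FMO genes 4 were higher and 8 lower (median -0.03), led by Hif1a (135 to 167 CPM) and the glucocorticoid receptor gene Nr3c1 (81.6 to 96.2 CPM).

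How these lists separated animals was described by the same ratio, with no test against Fmo2. The median ratio of the different-animal to the fellow-eye difference was 1.16 in other phase I oxidation, 1.08 in phase II conjugation, 1.178 in NADPH supply, 0.879 in riboflavin and FAD supply, 0.954 in taurine synthesis and transport and 1.03 among regulators, beside 1.04 over all genes. It was 1.64 among 13 glucocorticoid responsive genes (7 higher and 6 lower on the right, median 0.03) and 3.01 among 15 circadian clock genes (4 higher and 11 lower, median -0.02). Single genes of these 2 lists came close to the 5.72 of Fmo2, among them Zbtb16 (5.61), Nr1d2 (5.05) and Fkbp5 (4.35), named after their values were seen. The order of animals was another one in the examples that follow: Tsc22d3, induced by glucocorticoids, was highest in animal 68 (194 and 189 CPM), and Nr1d2, a clock repressor, had its highest mean in animal 64 (133 and 140 CPM). One phase I gene, Cyp26b1, an enzyme that breaks down retinoic acid and was singled out after its values were seen, had a ratio of 5.58, with 45.7 and 44.4 CPM in animal 61 and 21.4 to 37.5 CPM elsewhere.

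Cell type markers were set beside the high Fmo1 and Fmo2 of animal 61, and no listed marker found in the data was at 0 in all libraries. Fibroblast markers (10 of 10 measured) summed to 7938 and 7596 CPM in its left and right eye and 6147 to 9017 CPM elsewhere, which puts them at ranks 4 and 6 of 10. Within that list only 2 of 10, Dcn and Mfap5, named after their values were seen, were highest in both eyes of animal 61. The 2 most abundant of the list, Col1a2 and Col1a1, had their highest mean in animal 68. Endothelium (8 of 8) stood at 483 and 525 CPM against 380 to 548 CPM, smooth muscle and pericytes (8 of 8) at 824 and 891 CPM against 746 to 927 CPM, and pigment epithelium (8 of 8) at 6632 and 7488 CPM against 5790 to 7830 CPM. Macrophage markers (8 of 8) summed highest in animal 61, at 223.4 and 223.1 CPM against 187 to 218 CPM. Only 1 of these 8, Lyz2, was itself highest in both eyes of animal 61. Rod markers (8 of 8) were low in this animal, at 195 and 119 CPM against 132 to 1732 CPM. Skeletal muscle (3745 and 4079 CPM), surface epithelium (272 and 660 CPM), Schwann cells (149 and 166 CPM) and adipocytes (3.54 and 3.59 CPM, 5 of 6 markers measured) lay inside the range of the other animals. The part of these differences in the Fmo levels was not tested. Between sides, 0 markers passed. Surface epithelium markers were lower on the right in 8 of 8 (median log2 difference -1.01) and skeletal muscle markers in 7 of 8 (-0.31). Endothelium markers were higher in 8 of 8 (0.10) and pigment epithelium markers in 6 of 7 that entered (0.19), beside 46.0% of all genes. Markers of a list share the same libraries and are not replicates. By summed level, animal 61 went the other way for surface epithelium, and animals 61 and 66 for skeletal muscle. So did animal 68 for endothelium, and animals 64 and 68 for pigment epithelium. The medians of the other 6 marker lists lay between -0.03 and 0.06. Animals 61 and 65, the 2 with high Xist, stood at opposite ends for Fmo1 and Fmo2, with the highest and the lowest mean level.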

How the data were processed

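Libraries were made from total RNA with a stranded kit after depletion of ribosomal RNA, per the labels' protocols, which speak of retinae at extraction although the tissue label does not. STAR, Partek and GRCm38 (mm10) appear in the submitters' processing notes. Versions, annotation, use of strand and filters were not stated. The deposited values behave as CPM of the library total with 1e-04 added by the authors, and that offset was subtracted. Listed genes summed to 42.7% to 47.1% of the total. In 88.9% to 89.8% of low values (0.5 to 20 steps) the value was a whole number of steps (tolerance 0.05), which gave the implied depth but not whole reads for every gene. Floors cover counting error only. The intervals given come from the limma fit and rest on the variation left once animal and eye side are fitted.

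Genes averaging 1 CPM or more were tested as log2(CPM + 0.230), which understates differences of low genes such as Fmo4, by limma 3.58.1 in R 4.3.3 with animal and eye side as terms and Benjamini-Hochberg adjustment. The animal was a block because fellow eyes share it. Deviations of fellow eyes over all genes tested correlated above 0.1 in 2 of 5 animals. The values were 0.27, 0.11, 0.05, -0.19 and -0.05 in animals 61, 64, 65, 66 and 68. No 2 of the libraries were duplicates (45 pairs, chi-square over its degrees of freedom 11.6 to 59.7). With folds of 1.5, 2 and 4 placed into 67, 67 and 66 of 15414 genes, the right against left fit recovered 71.6%, 91% and 98.5%, with 0 false calls. The folds were placed all at once, which eases the adjustment, and not into the lowest genes. The shares are therefore not the chance that a lone gene, such as an Fmo gene, would be called. The members, lists and rules were chosen with earlier results of these data known. Named genes were the members, other genes of the family (not all are reported here), the 5 most similar per member, up to 2 neighbours on each side, and of each list the 2 most abundant and any that passed. Cell type lists are given as sums, and some genes the rule allows are not printed. Predicted loci were not named. Alternatives were other scalings, pseudocounts, filters on low values, array weights, robust moderation, no animal block and each animal left out. Coding identity came from Biopython 1.88, promoters from RefSeq (GRCm38.p6; 3 of 4 members matched, not Fmo1), and figures from matplotlib 3.10.9.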

Additional observations from a re-analysis of the deposited data

Results flagged for a closer look

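In groups of 5 eyes, 72 sets of values were checked for 1 library far from the others, and 8 were found. Chance alone gives about 1 in 20 for values not chosen by these data, so the 8 cannot be weighed against it. In right eyes animal 61 stood apart for Fmo1 (184 CPM) and Fmo2 (96.3 CPM), whose family was chosen by differences between animals. It also stood apart for the like-patterned genes Prr16 (2.96 CPM), Slc43a3 (19.0 CPM) and Sult5a1 (4.38 CPM), which were picked for a pattern like that of Fmo1. Among marker sums, rods stood apart in the left eye of animal 65 (826 CPM) and the right eye of animal 68 (1732 CPM), and Schwann cells in the left eye of animal 66 (241 CPM).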

How the results depend on the processing

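No gene passed in any of the 14 alternatives of the right against left fit (0 calls each in limma, 266 to 861 genes at an unadjusted p under 0.05). With no replicate block the standard error of Fmo2 rose from 0.06 to 0.30, at the same difference of 0.01, and 0 genes passed, so blocking changed no call. The sign of the Fmo2 difference turned without animal 61, 65 or 66 (-0.0245 to 0.0456 with single animals left out) and that of Fmo4 with median-of-ratios scaling (0.0024), quantile normalization (0.0388) or array weights (0.0318), and without animal 64 or 65 (-0.0945 to 0.10). Fmo1 (0.03 to 0.18) and Fmo5 (0.01 to 0.16) kept theirs. The cause was not tested. With single animals left out, the different-animal difference ran from 0.26 to 0.55 for Fmo1 and from 0.25 to 0.75 for Fmo2, lowest without animal 61 in both. Quantile normalization lowered the fellow-eye difference of Fmo2 to 0.0707 (ratio 8.53), and a pseudocount of 1 CPM lowered that of Fmo4 from 0.26 to 0.13 (ratio 1.05). The alternative without animal 61 for like-patterned genes, and all Fmo4 fits, were chosen after seeing the data.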

Other observations

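Pdk4, which encodes a kinase that holds back pyruvate oxidation and is induced by glucocorticoids and by fasting, was singled out after its values were seen. It stood at 20.7 and 26.9 CPM in the left and right eye of animal 61 and at 3.29 to 10.7 CPM elsewhere, the only member of the glucocorticoid responsive list with both eyes of animal 61 highest. In the same list Zbtb16 (18.5 and 15.8 CPM in animal 61, up to 56.5 CPM elsewhere) and Fkbp5 (20.3 and 17.2 CPM, up to 44.0 CPM elsewhere) were low or middling in that animal. In NADPH supply both eyes of animal 61 were highest for H6pd, the hexose dehydrogenase of the endoplasmic reticulum (30.7 and 30.0 CPM, 20.3 to 26.6 CPM elsewhere), and for Me1 and Idh1, all 3 likewise named after their values were seen. Of the 98 pathway genes 13 (13.3%) had both eyes of animal 61 highest, of the 73 marker genes 3 (4.11%), and of all genes tested 6.64%.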
